A study of Mus musculus with 3 samples.

Results

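On mouse exonic evidence-based oligonucleotide (MEEBO) slides, each probe carries an ID whose first letters name its class. The 4201 probes whose ID starts with mMA are described here beside the probes of the same genes whose IDs start with mMC or mMR. They were chosen by these letters alone, out of 35078 mouse probes among 38880 spots per slide. The sources used here do not give what the letters stand for. Of the 4201 mMA probes, 2810 could be named through their accession and stood for 2244 genes. A probe of class mMC or mMR was present for 2190 of these genes (2744 mMA probes beside 2976 mMC and mMR probes), and 54 genes had none.

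The slides were hybridised with RNA from sheets of retinal pigment epithelium (RPE), the pigmented layer behind the photoreceptors, from C57BL/6 mice aged 2.5–3 months. They came as 3 biological replicates of 1 group, with 1 array each and without a control group. The sheets were shaken off eyecups from which cornea, iris and neural retina had been taken out. Their RNA was amplified, labelled with biotin and made visible in 1 colour through dye-coupled streptavidin. How many animals made up a sample is not stated in these sources.

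An exonic evidence-based set draws its oligonucleotides from exons seen in transcript sequences. An exon that all transcripts of a gene share reports on the gene as a whole, whereas an exon that is skipped, mutually exclusive or used only at one end of some transcripts reports on those transcripts alone. Many genes of the cytoskeleton, of adhesion and of signalling carry such alternative exons, and their use differs between tissues. The oligonucleotide sequences and the exons they lie in are not in the files used here, so which exon a probe reads could not be determined and no sequence is printed.

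A value below is the median intensity of a spot minus its local median background, in scanner units. A probe was counted as above the threshold when this value exceeded the 95th percentile of the 94 spots of class mCN, taken as negative controls, on every array. That percentile was 133, 72.4 and 53.9 on replicates 1, 2 and 3. Levels of different probes are not compared, since each oligonucleotide hybridises with its own strength.

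The arrays carried the RPE signal that their labels name, and they differed from each other in the signal of other tissues. All 8 of 8 RPE markers were above the threshold on all 3 arrays, among them Rpe65, Rlbp1 and Lrat of the visual cycle. Of 7 photoreceptor markers 2 were above on all 3 arrays. On replicates 1, 2 and 3 singly, 2, 4 and 6 of them were above, with summed intensities of 2182, 1115 and 4034. Sums in scanner units are not scaled between arrays, whose mean mMC intensity was 897, 500 and 329. As a share of the summed intensity of all mouse probes, the photoreceptor markers made up 0.00749%, 0.00667% and 0.0364%. Of 12 markers of cornea and surface epithelium, 0, 10 and 10 were above the threshold on replicates 1, 2 and 3. Their summed intensities were 400, 68717 and 87990, or 0.00137%, 0.411% and 0.795% of the sum of all mouse probes. Replicates 2 and 3 thus stood apart from replicate 1 in this list, and none of its 12 genes had probes of both kinds. In such bulk samples, more cells of a type and more RNA per cell cannot be told apart. Replicate 3 was scanned in a separate session, which could not be tested as a batch because it held 1 array.

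Fewer mMA probes than probes of the other main classes were above the threshold. Of the 4201 mMA probes, 721 (17.2%) were above it on all 3 arrays, against 7213 of 24958 mMC probes (28.9%) and 1531 of 5153 mMR probes (29.7%). Over all 35078 mouse probes the share was 27.2%. Per array, 21.4%, 22.2% and 20.4% of the mMA probes were above the threshold, against 31.7%, 33.3% and 33.2% of the mMC probes. The difference was −11.4 ± 1.25 percentage points (mean ± SD, n = 3 arrays), with the mMA share lower on 3 of 3 arrays. With the 90th percentile of the mCN spots as threshold it was −6.00 ± 1.81 percentage points. The exact permutation test, which flips the sign of the difference of each array, gave a two-sided p of 0.25, the smallest that 3 arrays allow, so it could not pass a threshold of 0.05. Against mMR probes the difference was −12.4 ± 1.20 percentage points (SD, n = 3; exact p 0.25).

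Relative to the share of mMC probes, the mMA share was lower still among strong signals. Probes over 10 times the threshold made up 4.17%, 3.50% and 3.00% of the mMA probes on replicates 1, 2 and 3, against 11.9%, 11.6% and 10.3% of the mMC probes. The median mMA probe, at 29, 23 and 20, lay under the threshold like the median mMC probe, at 33, 27 and 23. Local background did not separate the classes, with medians of 58, 52 and 51 around the mMA spots and the same values around the mMC spots. Spots that the scanner software marked as not found made up 32.9%, 28.1% and 26.1% of the mMA probes, against 34.0%, 28.3% and 25.8% of the mMC probes.

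In limma, with log2 intensity after background correction and quantile normalization set against the threshold of each array, 642 mMA probes (15.3%) exceeded it with an adjusted p under 0.05. The same test called 6775 mMC probes (27.1%) and 1439 mMR probes (27.9%), and 25.5% of all mouse probes. At an unadjusted p under 0.05 there were 723 mMA probes (17.2%), against 27.3% of all mouse probes. These p-values measure the spread between the 3 samples of this series.

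Class was tied to the place on the slide. The mMA probes all lay in rows 25 to 28 of each print block, the mMC probes in rows 1 to 21, and the mMR probes mainly in rows 21 to 25. Row 25 was the one row that held both mMA and mMR probes. In it, 143 of 926 mMA probes (15.4%) were above the threshold on all 3 arrays, against 60 of 192 mMR probes (31.3%). The difference in that row was −15.4 ± 1.04 percentage points (SD, n = 3 arrays; exact p 0.25). In rows 26, 27 and 28 the mMA share was 19.1%, 17.1% and 15.9%. The 14 mCN spots of rows 25 to 28 reached at most 37, 29 and 24 on replicates 1, 2 and 3, so none of them passed the threshold. The threshold is a percentile of the mCN spots themselves, and 5 of all 94 passed it on each array. A count among 14 spots therefore does not test an effect of position. Beyond row 25, class and slide position cannot be told apart.

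Within the mMA class, the share above the threshold went with the kind of record behind the probe. Named probes were above it on all 3 arrays in 556 of 2810 cases (19.8%), against 165 of 1391 unnamed ones (11.9%). Probes listed with a curated RefSeq messenger RNA reached 19.7% of 2996, those with a full-length cDNA of the GenBank AK series 9.64% of 550, and those of the BC series 16.9% of 254. Of the 219 mMA probes with no accession, 13 (5.94%) were above the threshold. Among mMC and mMR probes the split ran the same way, with 35.4% of 20123 named and 16.2% of 9988 unnamed probes above it. Comparing named probes alone, the share of mMA probes minus that of mMC probes was −15.4 ± 1.73 percentage points (SD, n = 3 arrays; exact p 0.25).

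The genes that carried an mMA probe were not dim in their other probes. Of the 2976 mMC and mMR probes of these genes, 44.0% were above the threshold on all 3 arrays, against 33.9% of the 17147 mMC and mMR probes of genes without an mMA probe. These genes also had more known transcripts. The median number of RefSeq transcripts was 4 per gene (quartiles 2 and 9) with an mMA probe and 2 (quartiles 1 and 5) for the 13352 genes without one. A single transcript was listed for 14.5% of the genes with an mMA probe and for 35.9% of those without. These counts come from the current gene table and not from the transcripts known when the slide was designed.

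Placing each of the 2190 genes by which kind of probe was above the threshold on all 3 arrays gave 4 classes. Both kinds were above for 376 genes (17.2%), mMA probes only for 125 (5.71%), mMC or mMR probes only for 777 (35.5%), and neither for 912 (41.6%). The count for both kinds depended on the threshold, with 761 genes at the 90th and 172 at the 99th percentile of the mCN spots. An mMA probe was thus above the threshold for 501 genes (22.9%) and another probe for 1153 (52.6%). Over all 15596 named genes, 41.8% had any probe above it. On single arrays the class of 1767 genes was the same on each of the 3. On replicate 1 alone, the array with no cornea marker above the threshold, there were 490 genes with both kinds above, 130 with mMA only, 755 with mMC or mMR only and 815 with neither.

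For many genes, detection through one kind of probe did not extend to the other. When a same-gene mMC or mMR probe was above the threshold, an mMA probe was above it in 376 of 1153 genes (32.6%). When no other probe was above it, an mMA probe was in 125 of 1037 genes (12.1%). In the opposite direction, 376 of the 501 genes with an mMA probe above the threshold had another probe above it as well. Since a gene counts as above when any probe of a kind is, genes with several probes had more chances, and the 1276 genes with exactly 1 mMA probe and 1 other probe were set apart. Among these, both probes were above the threshold in 201 genes, the mMA probe only in 75, the other probe only in 418 and neither in 582, so the probes differed for 38.6% of genes.

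The share of mMA probes above the threshold was higher the brighter the companion probe, at each of the 5 steps of brightness. In the 657 genes whose companion was at or under the threshold, 11.4% of the mMA probes were above it. The share was 22.9% for companions at 1 to 4 times the threshold (240 genes), 34.4% at 4 to 16 times (227 genes), 41.1% at 16 to 64 times (112 genes) and 55.0% beyond 64 times (40 genes). Read the other way, companions were above the threshold in 41.8% of the 1000 genes with the mMA probe at or under it, 68.5% of the 181 genes with it at 1 to 4 times, 78.5% of the 65 genes at 4 to 16 times and 91.3% of the 23 genes at 16 to 64 times. With the mMA probe beyond 64 times, the companion was above the threshold in 5 of 7 genes, which did not continue the rise but are too few for a share.

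Pairs of probes outside the mMA class served as a measure of how often probes of a gene differ on these slides in any case. Among 1984 genes with 1 mMR probe, 1 mMC probe and no mMA probe, the calls differed for 33.6%, and among 1023 genes with exactly 2 mMC probes for 32.3%. The mMR probe was above the threshold more often than the mMA probe at each brightness of the companion, although these pairs come from different genes. Its share was 27.4% in the 1352 genes whose mMC probe was at or under the threshold, 45.4% where that probe lay at 1 to 4 times it, 52.3% at 4 to 16 times, 69.7% at 16 to 64 times and 78.3% beyond 64 times (23 genes). On replicates 1, 2 and 3, given an mMC probe above the threshold on that array, 38.9%, 38.0% and 32.8% of the mMA probes were above it too, against 57.4%, 57.6% and 55.7% of the mMR probes. The difference was −20.3 ± 2.25 percentage points (SD, n = 3 arrays; exact permutation p 0.25). It sets different genes as well as different probe classes against each other. Across genes, which are not independent replicates, the intensities of the mMA probe and its companion had a Spearman rho of 0.41, 0.35 and 0.29 on replicates 1, 2 and 3 (1276 genes), and those of the mMR and mMC probe 0.36, 0.34 and 0.31 (1984 genes). Each pair shares its array and its hybridisation.

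Several mMA probes were spotted for 405 genes. All mMA probes were above the threshold in 28 of these genes, some of them in 102 and none in 275. In the 316 genes with exactly 2 mMA probes, the calls differed for 21.5%. Neither probe was above the threshold in 70.3% of these genes, against 49.4% of the 1984 genes with an mMR and an mMC probe. Since probes that are both dark count as alike, this 21.5% is not comparable with the shares of the other pairs. With the first mMA probe by ID above the threshold (62 genes), the second was above it in 41.9%. In the opposite direction (58 genes) it was 44.8%. Among the genes with the most mMA probes, nearly all of these were dark, that is, not above the threshold on all 3 arrays. Asph, which encodes an aspartate beta-hydroxylase and further products from alternative exons, and Elmo1, an adaptor for Rac activation, had 13 mMA probes each and 0 above the threshold. Mdm1, a microtubule-binding protein of centrioles, had 10 with 0 above. Map3k20, a stress-activated kinase, had 1 of 8 above the threshold, at 133, 117 and 62.

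Dst shows how far mMA probes of a single gene can part. Its mMA probes are listed under several RefSeq messenger RNAs, and the brightest, mMA033920, shares its record with dark mMA probes but not with the mMC and mMR probes. Dst encodes dystonin, a linker of cytoskeletal filaments made in epithelial, neuronal and muscle forms. Its probe mMA033920 read 901, 637 and 287 on replicates 1, 2 and 3, while 5 further mMA probes stayed at or under 33 on every array. The seventh, mMA034452, read 15, 169 and 260, so it was under the threshold on replicate 1 and above it on replicates 2 and 3, the arrays with the cornea markers. Neither of the other Dst probes was above the threshold on all 3 arrays, although the brighter, an mMR probe, missed it only on replicate 3 with 323, 138 and 53.

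The genes with the strongest signal in both kinds were led by an RPE gene. Rgr, an opsin of the RPE that takes part in the visual cycle, read 65473, 65478 and 61055 on its mMA probe, which was saturated on replicates 1 and 2. Its mMC probe read 59168, 40341 and 24129. Both lay far above the threshold on every array, by 8.82 ± 0.11 on the log2 scale for the mMA probe, held down by saturation, and 8.15 ± 0.06 for the mMC probe (SD, n = 3; limma adjusted p 7.7e-07 each).

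The next genes were housekeeping genes and carriers of membrane and contractile function. Rplp1, a protein of the ribosomal stalk, read 19137, 11429 and 7362 on its mMA probe, against 18088, 9677 and 7270 on its mMC probe. Ppia, cyclophilin A, which isomerises prolines in folding proteins, read 24671, 14714 and 9361 on its mMA probe, against 16626, 8632 and 5810 on its mMC probe. In both genes each probe was more than 100 times above the threshold on each array, but processed copies of these genes elsewhere in the genome could share signal, so their identity is uncertain. Myl6, a myosin light chain, read 23931, 9756 and 6572 on the mMA probe, against 14484, 5166 and 3564 on the mMC probe. Hspa8, the constitutive Hsp70 chaperone, read 8134, 5980 and 4209 on its mMA probe, against 32914, 29000 and 17359 on the brighter of 2 mMC or mMR probes. All of these readings were well over the threshold, and the limma adjusted p of both probes was at most 2.9e-06 in each of the 5 genes named so far in this class.

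Clcn3 and Ppm1b had both kinds above the threshold and still held probes that were dark. Clcn3 encodes a chloride-proton exchanger of endosomes. Of its 3 mMA probes, mMA033409 read 11660, 7665 and 4332, mMA035259 read 320, 183 and 102, and mMA033384 read 29, 38 and 16. The first pair was above the threshold on all 3 arrays and the last on none, while all 3 other probes of the gene were above it, the one with the lowest ratio to the threshold at 8218, 5255 and 2565. Unlike the other Clcn3 probes, mMA033384 is listed under a different RefSeq messenger RNA. Ppm1b, a metal-dependent protein phosphatase, read 18843, 10269 and 5752 on its mMA probe. Of its 4 mMC and mMR probes 2 were above the threshold, the brightest with 15302, 7365 and 4823, and 2 were not, at 61 or less on every array.

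In 125 genes the mMA probe was the one above the threshold. Cnot7, a deadenylase of the CCR4-NOT complex that shortens poly(A) tails, led this class with 26008, 18801 and 7610 on its mMA probe, against 12, 16 and 13 on its mMC probe. The mMA probe stood 6.85 ± 0.35 above the threshold on the log2 scale (SD, n = 3; limma adjusted p 1.4e-06), whereas the mMC probe read like the negative controls. Rps18, a protein of the small ribosomal subunit, read 18688, 12659 and 11220 on its mMA probe, against 23, 29 and 15 on its mMR probe. Rps18 too has processed copies in the genome, so its mMA signal may not be its own alone. Cnot7 and Rps18 were the 2 genes of this class with an mMA probe over 64 times the threshold on every array.

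Further genes of this class serve metabolism, transcription and protein folding. Ucp2, an uncoupling protein of mitochondria, read 12362, 5434 and 2637 on its mMA probe, against 8, 23 and 17 on the brighter of its other probes. Nfatc2, a calcium-responsive transcription factor, read 4951, 2283 and 1760 on its mMA probe, against 22, 16 and 15. Ddx6, an RNA helicase of processing bodies, read 3215, 3293 and 2159, against 108, 68 and 41 on an mMC probe that came close to the threshold. In Polr1d, a subunit shared by RNA polymerases I and III, both mMA probes were above the threshold (2869, 1596 and 1278 on one, 2667, 1435 and 1817 on the other), against 21, 18 and 27 on the mMC probe. In Dnajb4, a co-chaperone of Hsp70, 1 of 2 mMA probes was above it at 3024, 1812 and 1336, and the mMC probe stayed at 27, 20 and 19. Dpcd read 5922, 2017 and 1354 on its mMA probe, against 52, 27 and 20 on its mMC probe. The limma adjusted p of the brightest mMA probe of each of these genes lay between 1.1e-06 and 4.0e-05, and that of the second Polr1d probe was 5.6e-05.

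The largest of the discordant classes held 777 genes whose mMA probes were dark beside a detected mMC or mMR probe. In 31 of them the other probe was over 64 times the threshold on every array. Plekhb1, a membrane-associated protein with a pleckstrin homology domain, read 0, −9 and −3 on its mMA probe, against 42981, 19122 and 14110 on its mMC probe. Invs, inversin, a protein of the primary cilium, read 10, 11 and 9 on its mMA probe, against 41038, 25881 and 13885 on its mMC probe. Tuft1, a tuftelin, read 31, 13 and 10, against 24742, 15018 and 8298 on its mMC probe. Ppp1r14c, an inhibitor of protein phosphatase 1, read 9, 10 and 24 on its mMA probe, against 21271, 10886 and 9265 on the brightest of 3 other probes. The rest of its mMC and mMR probes, at 2, 7 and 5 and at 8, 9 and 10, were dark as well. These mMA spots could not be told from the negative controls on any array.

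Other genes of this class had an mMA signal near the threshold, or a second dark probe. Bsg, basigin, the partner that carries lactate transporters to the RPE membrane, read 170, 71 and 47 on its mMA probe, above the threshold on replicate 1 alone, against 65472, 29629 and 12467 on an mMC probe that was saturated on replicate 1. Sgk1, a kinase induced by serum, glucocorticoid and cell stress, read 500, 81 and 24 on its mMA probe, which was above the threshold on replicates 1 and 2 and under it on replicate 3. Its mMC probe mMC020746 read 47375, 35090 and 20651, and a second mMC probe 11, 15 and 16. Got2, the mitochondrial aspartate aminotransferase, read 95, 76 and 67 on its mMA probe, against 25128, 14697 and 11177 on its mMR probe and 33, 34 and 16 on its mMC probe. A dark probe beside a bright one of the same gene was therefore not limited to the mMA class.

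Calls near the threshold turned on a few scanner units. The 6 genes whose mMA probe was just above it, Eef1aknmt, Ist1, Nrros, Map3k20, Wipi2 and Pou2f1, lay at no more than 1.01 times the threshold on their weakest array. The 6 just under it, Acbd5, Vldlr, Crk, Emc3, Sh2d3c and Tbrg1, lay at 0.984 to 0.995 times. The mMA probe of Ist1, a component of the membrane-scission machinery, read 299, 186 and 54, so replicate 3 alone brought it near the threshold. The mMA probe of Vldlr, a lipoprotein receptor, read 132, 170 and 142 and missed the threshold on replicate 1 by less than 1 unit, while its mMC probe read 12724, 7648 and 5011.

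Of the RPE function list, 7 genes had probes of both kinds, and all 7 had at least 1 kind above the threshold. Both kinds were above it for 3 (Rgr, Slc12a2, Lamp2), mMA only for 1 (Slc45a2) and mMC or mMR only for 3 (Tyrp1, Pmel, Cdh3). The mMA probes were thus above it in 4 of 7, against 22.9% of all 2190 genes, and the other probes in 6 of 7, against 52.6%. Slc12a2, the sodium-potassium-chloride cotransporter, read 157, 102 and 106 on its mMA probe, against 31125, 17787 and 12181 on its mMC probe. The mMA signal of Slc12a2 lay above the threshold on every array, at 1.18 times it on replicate 1, and did not pass the limma test (adjusted p 0.060). Lamp2, a lysosomal membrane protein whose last exon is alternative, read 1394, 773 and 488 on its mMA probe, against 18447, 8150 and 5591 on its mMC probe.

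Pigment genes of that list were mostly seen through one kind. Both mMA probes of Tyrp1, an enzyme of melanin synthesis, were dark, the brighter at 125, 53 and 33, against 4430, 2260 and 1567 on its mMC probe. Pmel, which forms the fibrils of the melanosome, read 151, 96 and 34 on its mMA probe, above the threshold on replicates 1 and 2 only, against 3335, 979 and 559 on its mMC probe. Slc45a2, a melanosome transporter, ran the other way by a narrow margin. One of its 2 mMA probes read 182, 94 and 58, against 403, 149 and 49 on an mMC probe that missed the threshold on replicate 3 alone, and neither passed the limma test (adjusted p 0.11 for each). Cdh3, P-cadherin, an adhesion protein of the RPE, read 18, 9 and 16 on its mMA probe, against 873, 683 and 277 on the brighter of its 2 mMR or mMC probes.

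Among 44 genes listed for textbook alternative exons, both kinds were above the threshold in 6, mMA only in 2, mMC or mMR only in 13 and neither in 23. An mMA probe was above it in 8 of 44, beside 22.9% of all 2190 genes, and another probe in 19 of 44, beside 52.6%, so the list did not hold more detected genes than the whole. Fgfr2, a fibroblast growth factor receptor whose mutually exclusive exons separate its epithelial and mesenchymal forms, read 48, 28 and 18 on the brighter of its 2 mMA probes and 17, 26 and 19 on the other, against 30542, 12841 and 9923 on its mMC probe. Its mMR probe read 281, 84 and 50, above the threshold on replicates 1 and 2 and under it on replicate 3. Both mMA probes of Fgfr2 were dark on all 3 arrays. Add1, adducin, which joins spectrin to actin, likewise had 2 dark mMA probes, at 37 or less on every array, against 10972, 7349 and 4896 on its mMC probe. Its mMR probe, at 98, 63 and 47, was under the threshold as well.

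Some of these genes were seen through both kinds. Add3, a further adducin, read 1350, 679 and 412 on its mMA probe, against 8208, 3220 and 2004 on its mMC probe. Numb, an endocytic adaptor with alternative exons in its interaction domains, had 1 mMA probe at 859, 662 and 465 and a second at 9, 3 and 15, against 3453, 1714 and 1149 on its mMC probe. The mMA probes of Numb thus fell on both sides of the threshold on every array. Dlg1, a scaffold of epithelial polarity, read 1198, 581 and 334, against 579, 250 and 176 on its mMC probe. Lmna, which encodes lamins A and C from alternative ends of a transcript, read 1009, 1017 and 690 on its mMA probe, against 931, 747 and 543 on the brightest of 3 other probes.

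In other genes of the list the mMA probe was dark beside a detected companion. Actn4, an actin crosslinker, read 109, 52 and 50 on the brighter of its 2 mMA probes, against 7846, 5613 and 4834 on an mMC probe. Casp9, the initiator caspase of the mitochondrial death pathway, read 43, 19 and 28, against 1624, 767 and 437. Epb41l3, a band 4.1 protein that ties membrane proteins to spectrin, read 31, 21 and 24, against 1563, 832 and 596. These mMA readings were all under the threshold, although the dimmer mMA probe of Actn4, at 83, 46 and 69, exceeded it on replicate 3.

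Each of the 6 remaining functional lists held more genes seen through mMC or mMR only than through mMA only, as all genes together did. Of 24 splicing factors and hnRNPs, both kinds were above the threshold in 8, mMA only in 2, mMC or mMR only in 9 and neither in 5, beside 17.2%, 5.71%, 35.5% and 41.6% of all 2190 genes. Snrpb, a core protein of spliceosomal small nuclear ribonucleoproteins, read 13274, 5351 and 3738 on its mMA probe, against 8109, 3389 and 1972 on its mMC probe and 21, 20 and 10 on its mMR probe. Prpf8, the central protein of the spliceosome, read 19, 18 and 8 on its mMA probe, against 3724, 2481 and 1141 on its mMC probe. Of 22 cytoskeleton and junction genes the counts in the same order were 6, 1, 9 and 6. Kif1b, a kinesin motor of axonal transport, read 85, 54 and 37 on its mMA probe, against 16034, 8013 and 5898 on the brightest of 3 other probes.

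The counts of the other lists, of 7 to 19 genes each, are given as descriptions beside the same 17.2%, 5.71%, 35.5% and 41.6%. Of 19 kinase and signalling genes both kinds were above the threshold in 4, mMA only in 0, mMC or mMR only in 9 and neither in 6. Mtor, the kinase of nutrient sensing, read 16, 16 and 8 on its mMA probe, against 4348, 1610 and 745 on its mMC probe. Of 18 chromatin and transcription genes the counts were 3, 1, 8 and 6, of 16 genes of membrane traffic and the lysosome 3, 2, 7 and 4, and of 7 energy genes 3, 0, 3 and 1. Acadm, a dehydrogenase of fatty acid oxidation, read 3628, 2987 and 1742 on its mMA probe, against 831, 311 and 149 on its mMC probe. Ogdh, an enzyme of the citric acid cycle, read 3, 14 and 13 on its mMA probe, against 4632, 2358 and 1140 on its mMC probe.

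Genes that mark other cell types were few among those with both kinds. Gnat1, rod transducin, read 142, 112 and 421 on its mMA probe, against 1601, 758 and 2450 on its mMC probe. Both Gnat1 probes were highest on replicate 3. The photoreceptor markers other than Gnat1 summed to 581, 357 and 1584, also highest there. Of the summed intensity of all mouse probes they made up 0.00199%, 0.00214% and 0.0143%. The part of photoreceptor RNA in the Gnat1 values was not tested. Nr2e3, a nuclear receptor of rods, read 10, 6 and 12 on its mMA probe, against 0, 3 and 7 on its mMC probe. Of 5 stroma and melanocyte genes none had an mMA probe above the threshold and 3 (Dcn, Fbln1 and Ogn) had another probe above it, beside 22.9% and 52.6% of all 2190 genes. Dcn, decorin, a matrix proteoglycan, read 35, 15 and 6 on its mMA probe, against 1011, 292 and 1388 on its mMR probe. The mMC probes of Dcn, at 52, 27 and 94 and at 32, 16 and 27, were not above the threshold on all 3 arrays. Of 4 Müller glia genes both kinds were above the threshold in 1 (Vim), mMC or mMR only in 1 (Dkk3) and neither in 2 (Aqp4 and Car2). Vim, vimentin, an intermediate filament of glia and of other cells, was above in both, at 4789, 2143 and 1526 on its mMA probe against 1843, 1257 and 685 on its mMC probe. Of 3 retinal neuron genes both kinds were above it in 1 (Gnao1), mMC or mMR only in 1 (Gad1) and neither in 1 (Chat). Gnao1, a G-protein subunit of neurons, was above in both at 9112, 7631 and 4918, against 21547, 16227 and 11081 on the brighter of its 2 mMC or mMR probes. In each of these lists 1 gene had an mMA probe above the threshold and 2 had another probe above it, beside the same 22.9% and 52.6%.

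For the 376 genes with both kinds above the threshold, it could be asked whether both probes of a gene moved together from array to array. The median SD over the 3 arrays was 0.24 (log2) for the mMA probe and 0.21 for the other probe. Deviations of the 2 probes from their own mean had a Spearman rho across genes of 0.47, 0.32 and 0.36 on replicates 1, 2 and 3, with the same sign in 68.6%, 60.6% and 67.0% of genes. These are descriptions over genes of the same 3 arrays. An SD over 0.5 was found for both probes of 10 genes, for the mMA probe alone in 35 and for the other probe alone in 21.

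In the genes where both probes varied most, the probes of both kinds went the same way. Tpm2, a tropomyosin of contractile fibres with mutually exclusive exons, read 418, 557 and 926 on its mMA probe mMA033722, against 370, 531 and 807 on its mMC probe, so both were highest on replicate 3. Its second mMA probe read 149, 132 and 65, above the threshold on every array and not highest on replicate 3. Smpd1, the acid sphingomyelinase of lysosomes, read 782, 196 and 88 on its mMA probe, against 3119, 841 and 333 on its mMC probe. Bccip, which binds the repair protein BRCA2, read 836, 249 and 101 on its mMA probe, against 5027, 1998 and 591 on its mMC probe. In Smpd1 and Bccip both probes were lowest on replicate 3, also relative to the threshold of each array, where the mMA probes stood at 1.63 and 1.88 times it.

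A few mMA probes followed the cornea markers. At or under the threshold on replicate 1 and over 3 times it on replicates 2 and 3 were 6 of 4201 mMA probes (0.143%), against 94 of 24958 mMC probes (0.377%). The opposite pattern, over 3 times the threshold on replicate 1 and at or under it on the others, was met by 0 mMA probes. It was as rare in the other classes, with 0 of 24958 mMC probes and 1 of 5153 mMR probes. Mal, a proteolipid of apical transport in epithelia, read 11, 1078 and 1731 on its mMA probe, against 24, 1576 and 3526 on its mMC probe. Both kinds of Mal probe were thus under the threshold on replicate 1 and bright on the others.

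Trim29 and Slc38a2 differed between kinds in this respect. Trim29, a tripartite motif protein of stratified epithelia, read 23, 1483 and 2254 on its mMA probe, against 283, 732 and 777 on its mMC probe, which was above the threshold on replicate 1 too. Slc38a2, a neutral amino acid transporter, read 62, 285 and 558 on its mMA probe, against 17, 36 and 53 on its mMC probe, which was dark on all 3 arrays. These genes were chosen after their values were seen. The cornea sum on the same arrays was 400, 68717 and 87990, and the part of surface epithelium in these values was not tested.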

How the data were processed

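RPE RNA of 3 samples was hybridised to 1 array each. The authors deposited 1 scanner export per array with median foreground and background intensity per spot, without normalization, written by GenePix Pro 4.1.1.4. Per the file headers the exports also hold a spot flag, a score that marks spots not found. The value table that the authors deposited holds normalized intensity, equal to foreground minus background times 1 factor per array (2.17, 3.64 and 5.05), with values under 1 set to 1. It entered 1 alternative. Unused columns with values of single samples numbered 0.

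Gene names came from matching each probe's accession to a table of assembly GRCm38.p6, without coordinates. Probes with several names stayed unnamed. Probes of 1 gene can be listed under different RefSeq messenger RNAs, as the mMA probe of Kif1b and the dark mMA probe of Dnajb4 are. The same holds, among others, for the mMA probe of Lmna, the dimmer mMA probe of Fgfr2 and several mMA probes of Dst. Matching on the identical record gave 2187 records, with both kinds above in 367, mMA only in 121, mMC or mMR only in 785 and neither in 914. Thresholds were taken per array from background-subtracted intensity. The sources used here do not say what the class mCN holds, and each call rests on taking it as negative. For the test, intensities were corrected with normexp (offset 50), taken to log2 and quantile-normalized in limma 3.58.1 (R 4.3.3). The log2 thresholds were 7.15, 7.05 and 7.08. Each probe was tested one-sided (lmFit, eBayes) with Benjamini-Hochberg adjustment over 35078 mouse probes. The script was tested on simulated data. The number of arrays limits the precision. RNA was amplified before labelling, and the distance of a probe from the transcript end was not tested.

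Members and the 15 gene lists were chosen with earlier results of these data known. Named genes were, by rule, the 8 with the largest lowest ratio to threshold in each class with a detected kind, 6 on each side of the threshold, up to 15 per list for RPE function, photoreceptor and alternative exons and up to 4 for other lists, by intensity, and the 6 with the most mMA probes. Smpd1, Bccip, Mal, Trim29, Slc38a2 and the genes without a same-gene probe fall outside the rule. A few genes that the rule names are not reported here. Where a kind had several probes, its values are those of the probe with the largest lowest ratio to the threshold. Alternatives were other percentiles, normalizations, call rules, matching rules and left-out arrays.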

Additional observations from a re-analysis of the deposited data

How the results depend on the processing

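No paired analysis was possible because there was 1 group only, so no groups share replicate numbers. With the 90th percentile of the mCN spots, both kinds were above the threshold in 761 genes and neither in 517, and limma called 1284 mMA probes. With the 99th percentile, both were above in 172 genes and mMA only in 80, and limma called 343 mMA probes. With the value table above 500, both were above in 224 genes. In the 1276 genes with 1 probe of each kind the counts were 201 for both, 75 for mMA only, 418 for mMC or mMR only and 582 for neither, with fewer genes by construction. Leaving out 1 array gave 381 to 434 genes for both, 127 to 137 for mMA only, 765 to 802 for mMC or mMR only and 853 to 899 for neither, 521 to 671 mMA probes in limma, and a difference in share of −11.9 to −10.7 percentage points. The difference in share kept its direction under every alternative run (−15.4 to −6.00, the smallest with the 90th percentile). In every other alternative run the counts stayed within 1.5 times. With normexp and quantile normalization the gene counts were unchanged at 376, 125, 777 and 912. They could hardly move there, since both steps keep the order of spots within an array. The first probe of each kind, the unflagged spots and the comparisons with mMR were chosen after seeing the data. What made the counts move was not tested. A probe under the threshold limits its signal on these arrays and does not show that its exon is absent.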

Other observations

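For 54 genes the mMA probes were the only ones named, and 14 of their 66 mMA probes (21.2%) were above the threshold on all 3 arrays. That share lay near the 19.8% of all 2810 named mMA probes, beside 27.2% of all 35078 mouse probes. Mrpl48, a protein of the mitochondrial ribosome, had mMA probes at 2434, 1491 and 1094, at 1768, 592 and 227, and at 43, 23 and 18. Of these 3 probes 2 were above the threshold on every array and 1 was dark. Tnrc6a, a partner of Argonaute proteins in microRNA silencing, read 1467, 842 and 630, and Rab18, a small GTPase of lipid droplets, read 924, 364 and 180. Cwh43 read 21, 306 and 513, under the threshold on replicate 1 and above it on replicates 2 and 3. These genes were chosen after their values were seen.

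Of 1391 mMA probes without a gene name, 15 were over 10 times the threshold on all 3 arrays, against 97 of the 2810 named mMA probes. The sources used here do not name what these 15 probes read.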
